A study of Mus musculus with 5 samples.

Results

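A set of 7 homeodomain transcription factor genes that specify the pituitary primordium were followed in mouse pituitaries at e12.5, mid-gestation: Pitx1, Hesx1, Six6, Six3, Lhx3, Lhx4 and Isl1. They are 7 of the 20097 gene symbols in the all-gene table, found by name, with the longest listed region kept for each; all 7 were listed and all 7 passed the filter on low levels. The libraries were separate biological replicates from littermate embryos of strain B6;129. Of the 5 libraries, 2 were labelled Itgb1 f/f; Pitx1-cre and are called libraries 13 and 16. The other 3, control libraries 9, 10 and 12, were Itgb1 f/f without the Cre. Floxed Itgb1 alleles, which encode integrin beta 1, were thus present in every embryo, and the groups differed by a Cre driven by Pitx1, which is itself a member. The sources used here do not say whether that Cre transgene carries transcribed Pitx1 sequence. Where cells escape the Cre, or come from tissue that does not make Pitx1, Itgb1 stays intact.

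The anterior pituitary grows out of Rathke's pouch, a fold of the oral ectoderm that meets the floor of the diencephalon. PITX1 acts early in the oral ectoderm, and HESX1 is a paired-like repressor of the early pouch. SIX3 and SIX6 are related factors that promote growth of forebrain, eye and pouch progenitors. LHX3 and LHX4 are related LIM homeodomain factors without which the pouch forms poorly or its cells are lost, and ISL1 is a LIM homeodomain factor of the ventral pouch and of the earliest thyrotropes. Several of them are made elsewhere in the head too: Six3 and Six6 in the ventral diencephalon, Isl1 and Lhx4 in neurons, and Pitx1 in oral ectoderm and arch mesenchyme.

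The longest exact run shared by the coding sequences of any pair of members was 20 bases, in GENCODE M21 transcripts. Runs of that length occurred between Lhx3 and Lhx4 and between Six3 and Six6. They are printed, all in capitals, as the longest unbroken matches of the related members. Similarity over the whole coding sequences was not measured.
Lhx3 and Lhx4: GAGCAGCTCTCCTCCGAGAC
Six3 and Six6: TGGTCGCTGCCCGTGGCCCC
No other listed region overlapped a member's region, but the table lists every region on the plus strand, so antisense transcripts cannot be told apart from the members.

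Promoters are shown for Hesx1 and Six6, the members with the highest ratio to the controls in library 13, and for Six3, which lay lowest in library 16. Each is the 250 bases before the RefSeq start (GRCm38.p6, a later build than the mm9 of the deposited regions), with every TAAT or ATTA, the homeodomain core on either strand, in capitals.
Hesx1, chr14:27000112-27000361, plus strand: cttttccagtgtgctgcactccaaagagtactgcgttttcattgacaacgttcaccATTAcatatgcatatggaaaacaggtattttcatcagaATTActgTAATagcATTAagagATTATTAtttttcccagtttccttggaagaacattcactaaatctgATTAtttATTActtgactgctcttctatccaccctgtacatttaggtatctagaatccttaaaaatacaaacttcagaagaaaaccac
Six6, chr12:72939632-72939881, plus strand: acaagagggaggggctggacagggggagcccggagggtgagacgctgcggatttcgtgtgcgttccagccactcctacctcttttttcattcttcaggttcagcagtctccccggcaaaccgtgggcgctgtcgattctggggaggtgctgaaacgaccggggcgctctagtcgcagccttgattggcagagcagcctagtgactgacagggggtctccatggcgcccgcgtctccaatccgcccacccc
Six3, chr17:85620584-85620833, plus strand: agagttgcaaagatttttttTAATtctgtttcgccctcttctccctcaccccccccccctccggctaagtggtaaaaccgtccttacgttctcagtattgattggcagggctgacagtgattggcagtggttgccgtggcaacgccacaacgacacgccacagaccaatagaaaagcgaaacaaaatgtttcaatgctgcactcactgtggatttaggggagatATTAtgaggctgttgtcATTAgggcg
The Hesx1 promoter held 8 cores, a number reached or passed by 1.12% of the 32851 promoters of the table, and had 34.0% G and C. The Six3 promoter held 3 cores and the Six6 promoter none. The 6 members with a promoter in the table had 7 starts, because Lhx3 has more than 1. Counted by gene, 4 members had at least 1 core. Lhx3 is among them, with a core at 1 start and none at the other. Counted by promoter, 54.9% of all promoters had at least 1. TAATCC, searched on both strands, is a sequence that PITX factors bind; it was present in the Isl1 promoter alone among these members and in 6.25% of all promoters. TAATTA, a LIM homeodomain sequence that reads the same on both strands, was in none of them and in 4.84% of all promoters. TAAT lies within both of the longer sequences. A match is letters only, and no match says only that the letters are missing from this window.

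Levels are given as deposited, scaled to 10000000 total tags, over regions that span introns as well as exons. Reads over listed regions numbered 4635629 to 6413188 per library. Tags over 406 olfactory and vomeronasal receptor genes, which few tissues use, were taken as background. They came to 0.4721 per kilobase in library 13, 1.4977 in library 16 and 0.1561 to 0.3949 across the controls. Itgb1, the targeted gene, was at 446.36 in library 13 and 186.36 in library 16, against 376.7 ± 90.0 (SD, n = 3) in the controls, so on that scale it was not lower in library 13 than in the controls. Subtracting background and then scaling by the bulk of genes with TMM factors put Itgb1 at 284.6 and 131.7, against 381.1 to 453.9. That was below every control in both libraries, where 21.5% of 14737 genes lay in library 13 and 41.6% in library 16. The median gene had a log2 ratio to the controls of 0.80 in library 13 and 1.28 in library 16. The limma change of each member over all 5 libraries is therefore also given below relative to the median gene. Changes with a library left out are given as fitted unless marked as relative.

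The 2 libraries labelled knockout went different ways. In library 13 all 7 members lay above every control, as did 73.3% of the 19313 genes tested. In library 16 Hesx1, Six6, Six3 and Lhx3 lay below every control, where 7.86% of genes lay, Pitx1 lay within the controls, and Lhx4 and Isl1 lay above every control with 72.9% of genes. These counts depend on the scaling. With TMM factors 3 members were above every control in library 13 (20.7% of 19198 genes) and Isl1 was below (16.5%), while in library 16 all but Lhx4 were below (40.0%) and Lhx4 was above (43.5%). With background subtracted and TMM factors, Pitx1, Hesx1, Six6 and Lhx3 were above every control in library 13 (23.5% of 14737 genes) and Isl1 was below (21.5%). On that scale Pitx1, Hesx1, Six6, Six3 and Lhx3 were below every control in library 16, as were 41.6% of genes, and Lhx4 was above, as were 42.1%. In bulk tissue, fewer cells of a type and less RNA per cell cannot be told apart.

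**Figure D1:**
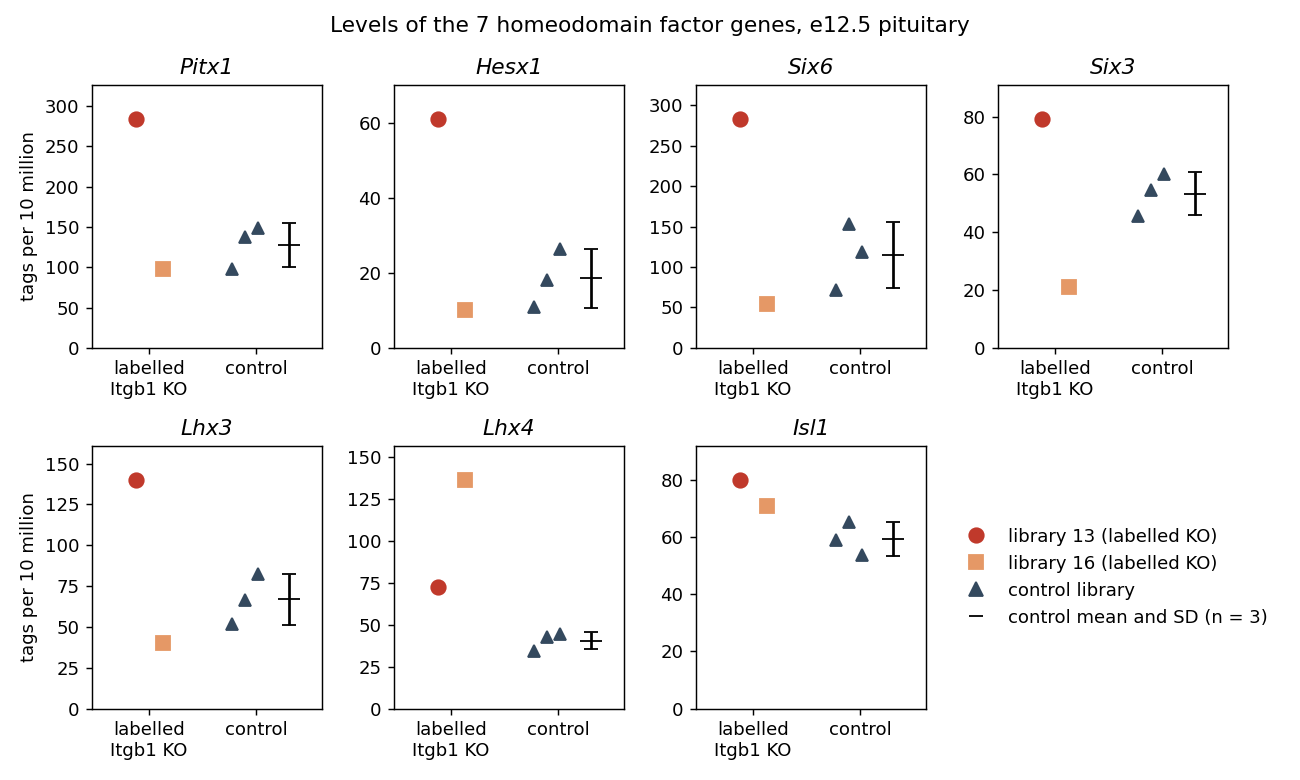
Levels of the 7 genes in tags per 10000000, one panel per gene, with linear axes from 0: library 13 (circle) and library 16 (square) on the left, the 3 control libraries (triangles) with their mean and SD on the right. Library 13 is above every control in each panel, and library 16 is below every control for Hesx1, Six6, Six3 and Lhx3.

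No member passed the test of knockout against control, and neither did any other gene (limma, 0.0% of 19313 genes at an adjusted p under 0.05). At an unadjusted p under 0.05 there were 5636 genes, of which 5632 were higher (29.2% of genes tested) and 4 lower (0.0207%); Lhx4 was the only member among them. With TMM factors the genes at that unadjusted p were 193 higher and 187 lower. The quasi-likelihood test of edgeR on recovered reads called 0 of 15644 genes (0.0%), with 455 at an unadjusted p under 0.05. DESeq2 called 25 genes (0.125%), none of them a member, and gave no adjusted p for any of the 7. Relative to the median gene 1 member was higher and 6 lower, with a median relative log2 change of -0.63 over the 7, where all genes split 9656 to 9656. That pooled value rests on library 16: the median relative log2 ratio of the 7 was 0.28 in library 13 and -1.98 in library 16, and 0.26 and -1.01 with background subtracted and TMM factors.

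Fits with a library left out differed. With library 13 left out, so that library 16 alone is assumed to vary like the controls, the quasi-likelihood test of edgeR on recovered reads called 6 members lower, in a fit chosen after the data were seen. Their log2 changes ran from -0.96 for Isl1 (adjusted p = 0.0233) to -2.55 for Six3 (adjusted p = 0.000104), with -1.58 for Pitx1, -2.07 for Hesx1, -2.24 for Six6 and -1.95 for Lhx3. Lhx4, at 0.54, was not called (adjusted p = 0.156). That fit called 23.8% of 17671 genes lower and 21.0% higher. With limma on background-subtracted values and TMM factors, 2 members were called lower in library 16, Six3 at -1.86 (adjusted p = 0.0215) and Six6 at -1.20 (adjusted p = 0.0255), where 15.4% of 14585 genes were called lower and 6.78% higher. With library 16 left out neither fit called a member, and over all genes they called 0.019% of 15769 and 0.0148% of 13509 lower and none (0.0%) higher.

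Pitx1 (mm9 chromosome 13, 55926815 to 55932386) was at 283.64 in library 13 and 98.18 in library 16, against 97.27, 137.27 and 148.18 in the controls. Library 13 stood 2.22 times above the control mean, and library 16 sat at the lower end of the controls. The fitted log2 change was 0.41 ± 0.55 (SE; limma, adjusted p = 0.572), which is -0.56 relative to the median gene; an exact 2-sided permutation test gave p = 0.6, where the smallest possible is 0.1. Without library 13 the change was -0.35, and without library 16 it was 1.17. Its nearest listed neighbours were Catsper3, 16453 bp away, and H2afy, 242996 bp away. Catsper3 was at 18.18 and 80.0 in libraries 13 and 16, against 11.82, 15.45 and 8.18.

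Hesx1 (mm9 chromosome 14, 27814348 to 27815511) was at 60.91 in library 13 and 10 in library 16, against 10.91, 18.18 and 26.36 in the controls. These are 67 and 11 reads in libraries 13 and 16, against 12, 20 and 29 in the controls, so counting error is wide: the exact 95% Poisson interval ran from 47.2 to 77.4 in library 13 and from 4.99 to 17.9 in library 16. The interval of library 16 overlapped those of all 3 controls, barely so for control library 12, whose interval began at 17.7. The interval of library 13 lay above those of all 3 controls. Its ratio to the controls in library 13 was higher than that of 98.5% of genes tested, the highest among the members, at a relative log2 ratio of 0.95. That value was also 0.95 with background subtracted and TMM factors. In library 16 the relative log2 ratio was -2.02, and -1.01 on the subtracted and scaled values. The fitted log2 change was 0.50 ± 0.68 (SE; limma, adjusted p = 0.575; exact permutation p = 0.7), or -0.47 relative to the median gene. The genes on either side, Appl1 and Il17rd, were 2.09 and 1.99 times the control mean in library 13, below the 3.3 times of Hesx1. In library 16 they were 0.616 and 0.848 times the control mean, and Hesx1 was 0.541 times.

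Six6 (mm9 chromosome 12, 74041732 to 74045886) was at 282.73 in library 13 and 54.55 in library 16, against 71.82, 153.64 and 119.09 in the controls. The libraries labelled knockout lay outside the control range on opposite sides, 5.18-fold apart. The relative log2 ratio was 0.56 in library 13 and -2.27 in library 16, where 2.46% of genes had a lower ratio. On the subtracted and scaled values these ratios were 0.53 and -1.19, and 15.4% of genes were lower in library 16. The fitted log2 change was 0.18 ± 0.55 (SE; limma, adjusted p = 0.805; exact permutation p = 1.0), or -0.79 relative to the median gene. The log2 change of Six6 was -0.99 without library 13, 1.36 without library 16 and -0.12 without control library 9. Its nearest listed neighbour, 4930447C04Rik at 23379 bp, was at 100.91 and 59.09, against 20, 59.09 and 38.18, within the controls in library 16; after background subtraction and TMM scaling it was at 6.129 there, below the control range of 17.16 to 41.99.

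Six3 (mm9 chromosome 17, 86020974 to 86025531) was at 79.09 in library 13 and 20.91 in library 16, against 45.45, 54.55 and 60.0 in the controls. It was the member lowest relative to the median gene, with a relative log2 change of -1.34; the log2 change itself was -0.37 ± 0.60 (SE; limma, adjusted p = 0.644; exact permutation p = 0.8). Six3 lay below the median gene in each library, at a relative log2 ratio of -0.23 in library 13 and -2.58 in library 16. In library 16 0.922% of genes had a lower ratio. With background subtracted and TMM factors the ratios were -0.26 and -1.86, and 5.69% of genes were lower in library 16. The fitted change turned to 0.57 without library 16, still -0.24 relative to the median gene of that fit. The neighbouring noncoding RNA gene Six3os1, 3637 bp away, was at 329.09 and 89.09, against 206.36, 276.36 and 279.09, which is a relative log2 change of -1.52. On the deposited scale Six3 and Six3os1 were both above every control in library 13 and below every control in library 16. After subtraction and scaling Six3os1 was at 215.8 and 74.68, against 252.5 to 322.4, below every control in both, while Six3 was within the controls in library 13. Six2, on the other side of Six3 at 58476 bp, was at 118.18 and 27.27, against 28.18, 49.09 and 62.73.

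Lhx3 (mm9 chromosome 2, 26056132 to 26061676) was at 140.0 in library 13 and 40.0 in library 16, against 51.82, 66.36 and 82.73 in the controls. Like Six6, it was higher than every control in library 13 and lower than every control in library 16. The fitted log2 change was 0.19 ± 0.58 (SE; limma, adjusted p = 0.809; exact permutation p = 0.8), or -0.78 relative to the median gene. The relative log2 ratio was 0.28 in library 13 and -1.98 in library 16, where 4.73% of genes had a lower ratio. Subtraction and scaling brought these ratios to 0.26 and -1.04, with 19.5% of genes lower in library 16. The log2 change of Lhx3 was -0.70 without library 13 and 1.08 without library 16. Qsox2, which begins 3373 bp from the Lhx3 region, was at 81.82 and 75.45, against 33.64, 61.82 and 46.36, above every control in both; background subtraction and TMM scaling put it at 39.0 in library 16, below the control range of 42.32 to 47.63.

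Lhx4 (mm9 chromosome 1, 157549224 to 157588757) was at 72.73 in library 13 and 136.36 in library 16, against 34.55, 42.73 and 44.55 in the controls. Both libraries labelled knockout were above every control, as were 50.2% of genes tested, and library 16 was the higher, the reverse of Lhx3. The fitted log2 change was 1.28 ± 0.59 (SE; 95% interval 0.13 to 2.43; limma, unadjusted p = 0.0289, adjusted p = 0.134), or 0.31 relative to the median gene, and the exact permutation test gave its smallest possible p of 0.1. Exons make up 10.7% of the Lhx4 gene in GENCODE M21, against 15.8% to 80.1% for the other members. Those shares are over whole genes, which are longer than the regions counted. The region of Lhx4 is the longest of the 7 at 39534 bp. Background over a region of this length matched 43.4% of its level in library 16 and 25.7% in library 13, against 13.9% to 36.5% in the controls. After background subtraction and TMM scaling its level in library 16 was 87.79, above every control, and in library 13 it was 36.27, within the control range of 25.34 to 41.13. The ratio of Lhx3 to Lhx4 was 1.92 in library 13 and 0.293 in library 16, against 1.5 to 1.86 in the controls. It was 2.54 and 0.411 with background subtracted, against 2.07 to 2.37.

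Isl1 (mm9 chromosome 13, 117088878 to 117099496) was at 80.0 in library 13 and 70.91 in library 16, against 59.09, 65.45 and 53.64 in the controls. On the deposited scale its ratio of library 13 to library 16 was 1.13, the nearest to 1 among the 7; with TMM factors it was at 61.01 and 40.09, farther apart than Lhx4 at 55.46 and 77.1. Each was above every control, but below the median gene, at relative log2 ratios of -0.37 and -1.02. The fitted log2 change was 0.34 ± 0.58 (SE; limma, adjusted p = 0.655; exact permutation p = 0.2), or -0.63 relative to the median gene. After the same subtraction and scaling Isl1 was at 50.31 in library 13, below every control, and at 62.59 in library 16, within them. Its relative log2 ratios were then -0.42 in library 13 and -0.08 in library 16.

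**Figure D2:**
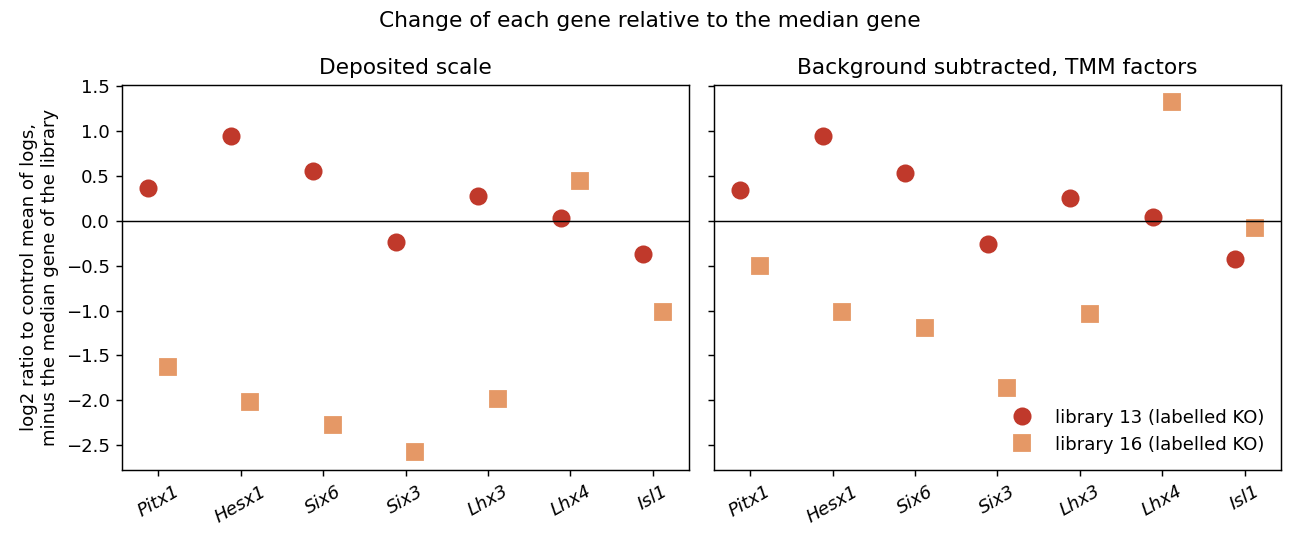
Log2 ratio of each gene in library 13 (circles) and library 16 (squares) to the mean log2 level of the controls, minus the median gene of that library, on the deposited scale (left) and with background subtracted and TMM factors (right). The circles keep nearly the same height in the 2 panels, with Hesx1 at 0.95 in each, while the squares move up from left to right, Six3 from -2.58 to -1.86.

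The length-dependent background weighed unequally on the members and the libraries. In library 13 it matched 0.694% to 6.27% of the level of the 6 members other than Lhx4, and in the controls 0.545% to 6.41%. In library 16 it matched 8.5% for Pitx1, 11.4% for Six6, 17.4% for Hesx1, 20.8% for Lhx3, 22.4% for Isl1 and 32.6% for Six3. Its subtraction left every one of these 6 above 8 tags per 10000000 in library 16.

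**Figure D3:**
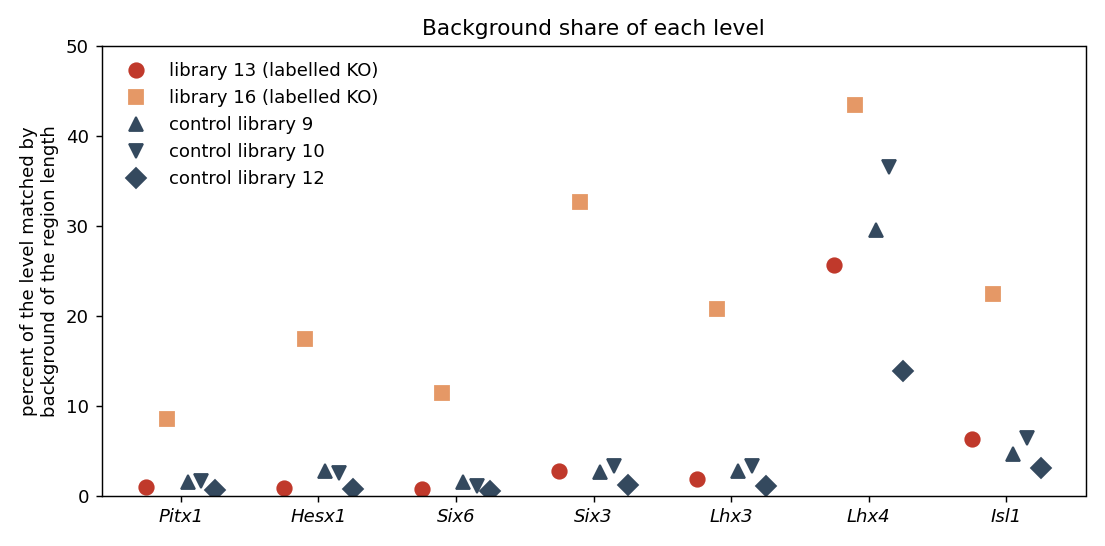
Percent of the deposited level of each gene that background of the same region length would give, by library, with a linear axis from 0. Library 16 (squares) is the highest for each gene, at 43.4% for Lhx4, and library 13 (circles) sits among the controls for every gene.

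Between genes, levels were compared per kilobase of region. In the controls the order was Six6 at 27.6 ± 9.89, Pitx1 at 22.9 ± 4.81, Hesx1 at 15.9 ± 6.64, Lhx3 at 12.1 ± 2.79, Six3 at 11.7 ± 1.61, Isl1 at 5.59 ± 0.557 and Lhx4 at 1.03 ± 0.135 tags per kilobase (SD, n = 3). From Six6 down to Six3 the ranges of neighbours in this order overlapped; Isl1 and Lhx4 were each separate from the gene above. In the controls Six6 was above at least 98.6% of listed genes on this scale and Lhx4 above 44.9% to 56.6%. The low places of Isl1 and Lhx4 are levels per kilobase of regions made mostly of introns. Their genes hold 3959 and 5740 exonic bases in GENCODE M21, against regions of 10619 and 39534 bp. Levels per exonic base were not computed, and the order of the members could differ on them.

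The makeup of the set does not depend on how libraries are scaled, though it does depend on background. The share of Six3 in the summed level per kilobase of the 7 members was 7.77% in library 13 and 7.49% in library 16, against 14.3%, 11% and 11.7% in the controls; with background subtracted it was 7.67% and 6.08%, against the same control values. Divided by the same sum, 2.52% of genes tested lay below every control in both libraries; Six3 was the only member that did. Hesx1 had a share of 23.4% in library 13 and 14% in library 16, against 13.4%, 14.4% and 20.2%. The share of Lhx4 was 0.824% in library 13 and 5.63% in library 16, against 1.25%, 0.997% and 1.0%. Isl1 had 3.37% and 10.9%, against 4.5% to 7.96%, and thus, like Lhx4, lay below the controls in library 13 and above them in library 16. Six6 had 30.5% in library 13, within the controls, and 21.4% in library 16, below their range of 24.7% to 34.1%. Pitx1 had 22.8%, within the controls, and 28.8%, above their range of 22.7% to 25%. Lhx3 was within the controls in both, at 11.3% and 11.8%, against 11% to 13.4%. The ratio of Six6 to its paralog Six3 was 3.57 and 2.61, against 1.58, 2.82 and 1.98. The ratio of Pitx1 to Six3 was 3.59 and 4.7, against 2.14, 2.52 and 2.47, so it was higher than every control in both libraries.

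Markers of the pituitary epithelium were high in library 13 and mixed in library 16. The labels give epithelial pituitary cells, and all 6 markers set out here (Cdh1, Epcam, Krt8, Krt18, Cldn6 and Sox2) had tags in every library. Their summed level was 1344.0 in library 13 and 475.5 in library 16, against 440.9 to 673.6 in the controls, and with background subtracted and TMM factors 871.6 and 380.5, against 594.8 to 663.8. The tight junction gene Cldn6 was at 398.18 and 69.09, against 126.36, 190.91 and 178.18. The adhesion gene Epcam was at 415.45 and 90.91, against 113.64, 184.55 and 190.0. Both were above every control in library 13 and below every control in library 16, as Krt18 and Sox2 were. Cdh1, the E-cadherin gene, was at 201.82 and 181.82, against 50.91, 82.73 and 81.82, above every control in both. Krt8 was at 80.91 and 51.82, against 40.91, 62.73 and 34.55, within the controls in library 16. Cdh1 made up 15% of the marker sum in library 13 and 38.2% in library 16, against 11.5% to 13% in the controls. The part of these markers in the members' levels was not tested.

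Set against the epithelial marker sum of its own library, a division chosen after the values were seen, Pitx1 was at 21.1% in library 13 and 20.6% in library 16, against 22.1%, 20.4% and 23.6% in the controls. Lhx3 was at 10.4% and 8.41%, against 9.85% to 13.2%, and Six6 at 21% and 11.5%, against 16.3% to 22.8%, so each was within the controls in library 13 and below them in library 16, where 7.59% of genes lay below. Six3 was at 5.89% and 4.4%, against 10.3%, 8.1% and 9.54%. It alone of the members lay below every control in both libraries, where 5.7% of 19313 genes lay on this division and 14.3% of 14737 with background subtracted. Hesx1 was at 4.53% and 2.1%, against 2.47% to 4.19%, above every control in library 13, as were 3.56% of genes, and below every control in library 16. Isl1, at 5.95% and 14.9% against 8.53% to 13.4%, and Lhx4, at 5.41% and 28.7% against 6.34% to 7.84%, were below the controls in library 13 and above them in library 16. On this division 48.8% of genes were below every control in library 13 and 83.8% above every control in library 16. With background subtracted Pitx1 was at 26.9% in library 16, above the control maximum of 24%, as were 63.8% of genes above every control. Several of these places in library 16 rested on Cdh1. With Cdh1 left out of the sum, Pitx1 was at 33.4% there, above the control range of 23.2% to 27.1%, and Lhx3 (13.6%), Six6 (18.6%) and Hesx1 (3.41%) lay within the controls. Six3, at 6.93% and 7.12%, against 11.7%, 9.23% and 11%, was then the only member below every control in library 16, where 2.59% of genes lay, and the only one below in both libraries, where 1.86% lay.

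**Figure D4:**
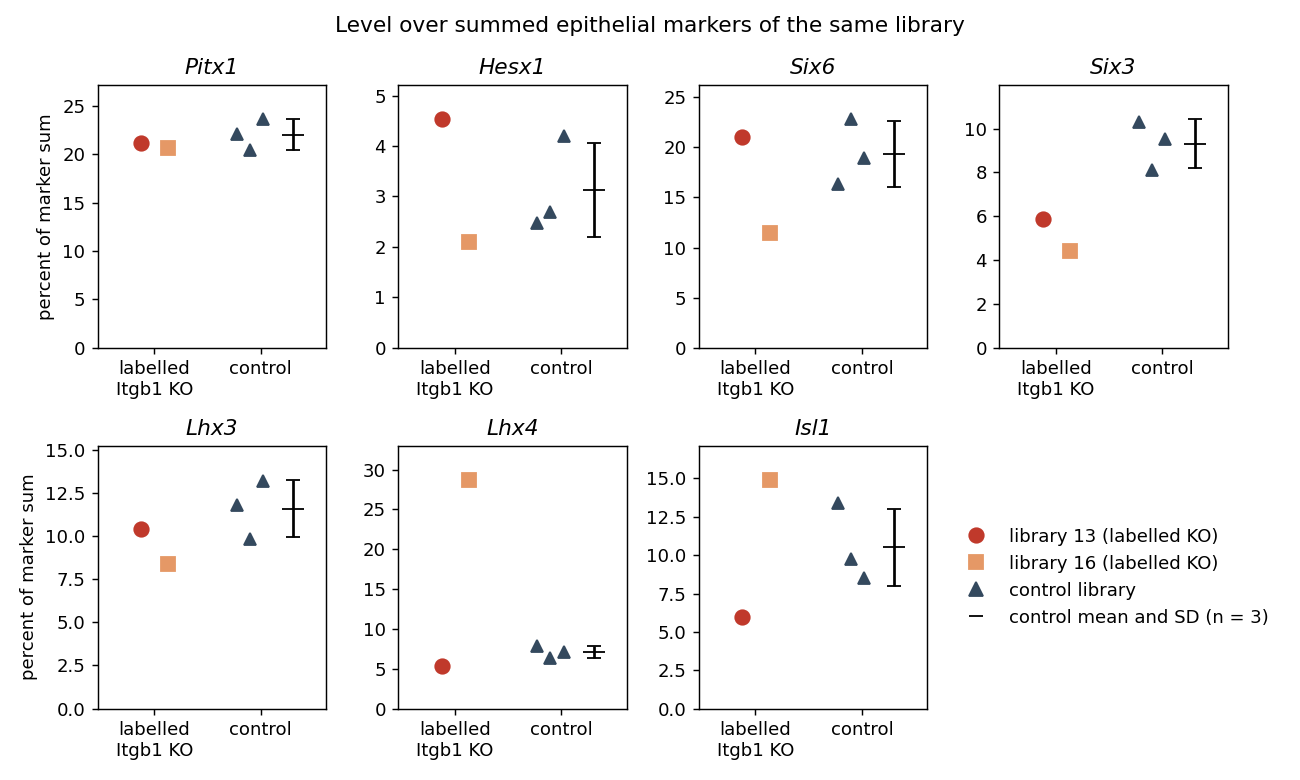
Level of each gene as a percent of the summed level of the 6 epithelial markers of the same library, with linear axes from 0 and symbols for library 13 (circle), library 16 (square), the controls (triangles) and their mean and SD. Six3 lies below every control in both libraries labelled knockout. Pitx1 lies within the controls in both, but with Cdh1 left out of the sum it is above them in library 16, at 33.4%.

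Markers of other tissues that make these genes also moved, and their part in the result was not tested. The 10 markers of the infundibulum and ventral diencephalon, where Six3 and Six6 are also made, reached 252.7 in sum in library 13 and 217.3 in library 16, against sums of 290.9 to 566.4 in the controls, and 8 of the 9 tested were below the median gene (median relative log2 change -1.53). None of the 10 was at 0 in every library. Fgf10, a growth factor of the infundibulum, was at 138.18 and 92.73, against 139.09, 344.55 and 310.91, and the LIM homeodomain gene Lhx2 at 32.73 and 54.55, against 53.64, 60.0 and 44.55. The 11 neuronal markers summed to 1115.0 and 1289.0, against 663.6 to 996.4, with 7 above the median gene and a median relative log2 change of 0.07. With background subtracted and TMM factors their sum was 553.3 and 420.3, against 631.3 to 805.8. The 7 oral ectoderm markers summed to 341.8 and 648.2, against 124.6 to 220.9, and to 141.3 and 263.8 on the subtracted and scaled values, against 86.98 to 104.6. The 9 listed markers of head and first arch mesenchyme summed to 679.1 and 700.0, against 381.8 to 682.7, and to 390.1 and 443.9 on the subtracted and scaled values, below every control at 507.1 to 561.7. Summed markers of endothelium (506.4 and 765.5, against 256.4 to 422.7), macrophages (141.8 and 331.8, against 66.36 to 117.3) and skeletal muscle (408.2 and 735.4, against 124.6 to 312.7) were highest in library 16, as were the 5 listed erythroid markers (287.3 and 612.7, against 177.3 to 446.4). Subtraction and scaling put the endothelial sum in library 13 below every control, at 241.7, against 278.5 to 281.5. The macrophage sum there (42.43, against 43.22 to 48.04) and the erythroid sum (179.9, against 265.9 to 471.6) also fell below every control. That of skeletal muscle came to lie within the controls, at 163.7, against 75.93 to 163.9. All of these sums stayed highest in library 16, at 343.7, 96.32, 628.3 and 243.9 in the same order.

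The paralogs of the members went both ways. Of 13 paralogs, 8 were above and 5 below the median gene, with a median relative log2 change of 0.36 and no call; the median was -0.20 in library 13 and 0.96 in library 16. Six4, a paralog of Six3 and Six6, was at 133.64 in library 13 and 40.0 in library 16, against 30.91, 58.18 and 62.73, and so lay above every control in library 13, as Six2 did. Lmx1a, a LIM homeodomain paralog, was at 110.91 and 345.45, against 71.82, 119.09 and 44.55, with its highest level in library 16. After subtraction and scaling Lmx1a was at 24.25 and 123.2, against 21.25 to 52.84. Lmx1b was also highest in library 16, at 65.45 and 205.45, against 53.64, 70.0 and 26.36.

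Partners through which these factors act did not pass the test either. Of 12 genes listed as LIM cofactors and competitors, 10 were below the median gene and 0 were called. Their median was -0.51 (-0.11 in library 13 and -0.62 in library 16). Isl2, itself a LIM homeodomain gene, is in this list and also among the paralogs. Ssbp2, whose protein stabilises the LDB bridge between LIM factors, was at 1701.82 and 642.73, against 506.36, 1227.27 and 1234.55. Its paralog Ssbp3 was at 727.27 and 562.73, against 338.18, 626.36 and 608.18. Subtraction and scaling put Ssbp2 at 1064.0 and 315.1, against 706.6 to 1282.0, and Ssbp3 at 444.4 and 406.1, against 482.4 to 628.8. Of 16 corepressors and coactivators of SIX3, SIX6, HESX1 and PITX proteins, 14 were below the median gene (median -0.39) and 0 were called; the median was 0.01 in library 13 and -1.14 in library 16. Dach1, a corepressor that works with SIX6, was at 1168.18 and 671.82, against 423.64, 972.73 and 815.45, and the coactivator gene Eya4 at 1080.0 and 546.36, against 218.18, 504.55 and 641.82. Subtraction and scaling put Dach1 at 662.8 and 113.6, against 518.3 to 810.1, and Eya4 at 647.0 and 204.3, against 247.1 to 646.9. Both were then below every control in library 16, where 41.6% of genes lay.

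Signals that act on the pouch, and the genes above and below the members in the cascade, gave no call. Of 24 signalling genes tested, 8 were above and 16 below the median gene, with a median relative log2 change of -0.42; it was -0.12 in library 13 and -0.77 in library 16. Gli3, a transcriptional effector of hedgehog signalling, was at 1409.09 and 676.36, against 445.45, 933.64 and 1024.55, and Tcf7l2, an effector of WNT signalling, at 626.36 and 721.82, against 318.18, 620.91 and 611.82. Subtraction and scaling put Tcf7l2 at 359.7 in library 13, below every control (428.6 to 623.8), and at 495.8 in library 16, within them. Gli3 was then at 861.3 and 317.1, against 600.8 to 1054.0. Of 12 other pouch transcription factors tested, 3 were above and 9 below, with a median of -0.96, which came from library 16: the median was -0.03 in library 13 and -2.11 in library 16. In this list Foxe1 had no tags in any library. Tbx3, a T-box repressor of the infundibulum and ventral pouch, was at 97.27 and 48.18, against 129.09, 157.27 and 142.73, below every control in both libraries, where 0.202% of genes tested lay. Pax6, which marks the dorsal pouch, was at 231.82 and 318.18, against 126.36, 181.82 and 99.09. It lay within the controls in both libraries after subtraction and scaling, at 113.3 and 134.6, against 83.87 to 146.6. Of 16 downstream genes tested, 7 were above and 9 below, with a median of -0.19. Cga, the shared hormone subunit gene that LHX3, PITX1 and ISL1 act on, was at 8.18 and 70.0, against 31.82, 107.27 and 55.45, so it was lowest in the library where Lhx3 and Pitx1 were highest. Gata2, a factor of thyrotropes and gonadotropes, was at 32.73 and 55.45, against 35.45, 46.36 and 53.64. Subtraction and scaling put it at 19.56 and 50.2, against 40.53 to 56.22.

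The authors' deposited table of changed genes lists 1140 genes, 643 of them higher (3.2% of the 20097 symbols) and 496 lower (2.47%), and holds 2 of the 7 members, both as higher. For Lhx3 (mm9 chromosome 2, 26055732 to 26062076, minus strand), the authors' deposited table gives 18 for the knockout and 3 for the control, a log2 fold change of 2.58 and p = 0.000122. For Six3 (mm9 chromosome 17, 86020174 to 86025531, plus strand), the authors' deposited table gives 17 and 8, a log2 fold change of 1.09 and p = 0.00544. A second fold column of the authors' deposited table gives 4.15 for Lhx3 and 1.5 for Six3. The all-gene levels, taken over a shorter region of each of these genes, give other sizes. Lhx3 was 2.09 times the control mean in library 13 and 0.597 times in library 16, and Six3 1.48 and 0.392 times. The header gives no unit for the genotype values and does not name the libraries behind them. The authors' deposited table does not hold Hesx1, Six6 or Pitx1, whose levels in library 13 were further above the control mean than those of Lhx3 and Six3. Of the 571 genes that the authors' deposited table lists as higher and that were tested here, 45.5% lay above the median gene, and of the 452 that it lists as lower, 74.8% lay below it.

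Genes whose pattern was most like each member were found over the 5 libraries on background-subtracted values with TMM factors, as the lowest root mean square difference of centred log2 levels among 8926 genes. For Hesx1 these were Six4, Six2 and Vezf1, at differences of 0.157, 0.163 and 0.173. For Six3 they were Lmnb2, Rnh1 and Six3os1, at 0.0593, 0.0676 and 0.0935. For Six6 they were Pibf1, Tmem64 and Ywhaz, at 0.0531, 0.0692 and 0.0804. For Lhx3 they were Tmed2, Gart and Alg5, at 0.041, 0.0502 and 0.0528, and for Pitx1 Psmd3, Usp38 and Prpf19, at 0.0214, 0.0216 and 0.026. For Lhx4 they were Smco4, Sil1 and Tmem63a, at 0.0321, 0.0613 and 0.0925, and for Isl1 Mark1, Crocc and Mrpl39, at 0.0322, 0.0654 and 0.0773. Among the members themselves the closest pair was Lhx3 and Pitx1 at 0.221, and the farthest was Lhx4 and Six3 at 1.25. The other members were among the genes ranked, and none of them came among the nearest genes named here for any member.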

How the data were processed

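RNA-seq of 3 control and 2 Itgb1 knockout pituitaries was analysed from the processed tables. Per the labels' protocols, ribosomal RNA was depleted with Ribo-Zero and libraries were made with ScriptSeq v2. Bowtie2, HOMER, edgeR and the build mm9 are named in the submitters' processing notes, without roles. Per the file headers, the authors deposited one normalized signal per region and library, in tags per 10000000. All its values were whole multiples of 10/11 (100.00% within 0.01 reads), so reads were recovered. For changed genes the authors deposited a p-value, a log2 fold change, 2 fold (ratio) columns and, for each genotype, a score without a stated unit.

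The test was limma 3.58.1, run in R 4.3.3 on log2(value + 1) with a mean-variance trend, for genes with a mean of at least 1, with Benjamini-Hochberg adjustment over 19313 genes; changes of low genes are understated. Count tests on recovered reads used edgeR 4.0.16 and DESeq2 1.42.0. Background was the tags per kilobase over 406 autosomal olfactory and vomeronasal receptor genes times region length, subtracted with a floor of 0; fits with TMM factors also then kept a mean of at least 5. The members and lists were chosen with earlier results of these data known. Named genes are the 7 members, up to 4 called genes of each list or else its 2 of highest level, and the 3 genes most like each member; defining markers, neighbours and genes at 0 named beyond these were chosen after their values were seen. Poisson intervals cover counting error only. Some genes of the lists are not reported here and were left out of the lists' counts and sums.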

Additional observations from a re-analysis of the deposited data

How the results depend on the processing

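The count of 0 genes called was 25 with DESeq2. Without library 13 or library 16, fits added after the data were seen called 3241 and 2 genes with background subtracted and TMM factors, and 7916 and 3 in the quasi-likelihood test; the cause was not tested. Leaving out libraries thus gave 0 to 7916 calls. Without library 13 the quasi-likelihood test called 6 members lower and the other fit called 2.

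TMM factors turned the log2 change to -0.44 for Hesx1, -0.80 for Lhx3, -0.59 for Pitx1, -0.81 for Six6 and -0.65 for Isl1, by moving the median gene from 0.97 to 0.03. With background subtracted as well, the values were -0.01, -0.37, -0.06, -0.31 and -0.23. The quasi-likelihood test gave -0.45 for Lhx3, -0.29 for Pitx1, -0.25 for Six6 and -0.59 for Isl1, and DESeq2 gave -0.46, -0.31, -0.25 and -0.63. With one library left out, the log2 change ran from -0.74 to 1.75 for Hesx1, -0.70 to 1.08 for Lhx3, -0.35 to 1.17 for Pitx1, -0.99 to 1.36 for Six6 and -1.30 to 0.57 for Six3. With background subtracted and TMM factors and library 13 left out, the values were -1.01 for Hesx1, -1.05 for Lhx3, -0.51 for Pitx1, -1.20 for Six6 and -0.09 for Isl1; Isl1 was at -0.39 with library 16 left out. Without library 13 the quasi-likelihood test gave -2.07 for Hesx1, -1.95 for Lhx3, -1.58 for Pitx1, -2.24 for Six6 and -0.96 for Isl1, and without library 16 it gave -0.38 for Isl1. The log2 change of Lhx4 was above 0 in every fit run. Pseudocounts, filters, the trend, summed regions, subtraction of background alone and totals without Rn45s changed no direction and no call of a member.

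Members above every control in library 13 numbered 7 as deposited, 3 with TMM factors and 4 with background subtracted as well, beside 73.3%, 20.7% and 23.5% of genes. Those below numbered 0, 1 and 1, the last 2 beside 16.5% and 21.5% of genes. In library 16 those above numbered 2, 1 and 1, beside 72.9%, 43.5% and 42.1% of genes. Those below every control there numbered 4, 6 and 5, beside 7.86%, 40.0% and 41.6% of genes. Depth limits Hesx1 most, with 11 reads in library 16. No paired analysis was possible because the groups share no replicate number.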
